A study of Mus musculus with 33 samples.

Results

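H3K27me3 was followed by ChIP-seq in Uhrf1 KO mouse embryonic stem cells (mESCs) and in the embryoid bodies (EBs) grown from them for 1, 2 and 3 weeks. The 4 deposited domain lists of these samples, out of 33 samples in the series, were chosen by genotype, target and stage and compared with each other. The Uhrf1 KO cells lacked Uhrf1 and came, with E14 as the WT line, from another group. E14 is a widely used mESC line. The mESCs were grown with LIF on gelatin or feeder cells, and the EBs were started as hanging drops and then kept as spheroids in a medium listed without LIF. Each stage was 1 library from 1 KO line, so no difference between stages has a replicate check and no p-value is given. Wilson 95% intervals below cover counting error over promoters or domains only, and neighbouring promoters often shared 1 domain.

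Uhrf1 is the factor that brings the maintenance DNA methyltransferase to newly copied DNA, and it also reads histone marks. H3K27me3 is laid down by Polycomb repressive complex 2 over genes that are kept silent, in ESCs mainly developmental regulators with CpG-rich promoters. Many such promoters also carry H3K4me3, the mark of active or poised starts, and promoters with both marks are called bivalent. As ESCs differentiate, the mark is removed from the genes of the chosen lineage and can spread over others.

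A promoter was called marked when a domain overlapped the window of 5 kb either side of the start of a protein-coding gene, for 22367 genes of the mm9 genome. At least 1 of the 4 Uhrf1 KO lists marked 7892 promoters, and 14475 were marked in none. The Uhrf1 promoter itself had no H3K27me3 domain and had an H3K4me3 domain at all 4 stages in the KO cells. A chromatin mark at the start does not check whether the gene was disrupted.

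The mESC list stood apart from the 3 EB lists. It held 722 domains with a median of 0.914 mean reads per 1.5 kb bin, and 389 of them (53.9%) averaged under 1 read per bin. In the week 1, 2 and 3 lists the lowest domain averaged 6.42, 3.86 and 3.77 reads per 1.8 kb bin. Summed from these mean counts, the mESC domains held about 59000 reads, against 1006000, 1609000 and 1170000 at the 3 weeks. These values take the count column as mean reads per bin in each list, and whether the mESC list was scaled like the EB lists is not given in the sources used here. The mESC domains under 1 read per bin covered 56 Mb and the others 28.1 Mb. Of the former 274 of 389 (70.4%) and of the latter 243 of 333 (73%) met a week 1 domain, and their median lengths were 54 and 28.5 kb. A longer domain meets another more easily. Their promoters were marked at all 3 EB weeks in 415 of 992 (41.8%) and 361 of 702 cases (51.4%). The number of marked promoters, the promoters marked in the 4 lists, the median length and H3K4me3 in mESC are also given without these domains, and other values of the mESC list rest on all its domains.

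The number of marked promoters was lowest in the mESC list and highest at week 2. In mESC 1694 promoters were marked (7.57% of all, interval 7.23 to 7.93) and at week 1 4724 (21.1%, interval 20.6 to 21.7). The week 2 list marked 5391 (24.1%, interval 23.5 to 24.7) and the week 3 list 4355 (19.5%, interval 19 to 20). Without the mESC domains under 1 read per bin, the mESC number was 702. The lists also differed in how much they covered, from 3.17% of the genome in mESC to 6.78%, 17.6% and 15.8% at weeks 1, 2 and 3. When each list was reduced to its domains of highest mean count, down to the 84.1 Mb that the mESC list covered, the order was different, with 1694, 2856, 1822 and 1589 promoters. The week 1 list thus reached the most promoters per covered length, and the larger count at week 2 went with its larger covered length.

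**Figure D1:**
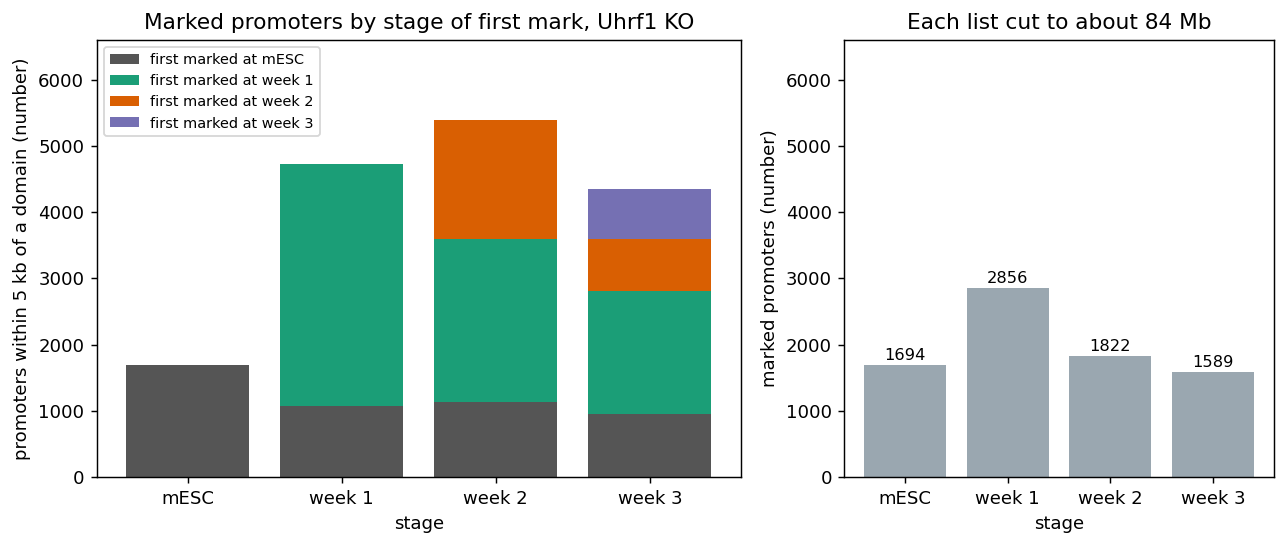
Number of protein-coding promoters within 5 kb of an H3K27me3 domain at each stage of the Uhrf1 KO cells (left, bars split by the stage at which the promoter was first marked) and after each list was reduced to the covered length of the shortest (right). The left bars reach 1694, 4724, 5391 and 4355 and the right bars 1694, 2856, 1822 and 1589. Each bar is 1 library, so there are no error bars.

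Most promoters that gained the mark first showed it at week 1. Week 1 added 3646 promoters (16.3% of all), week 2 added 1796 (8.03%) and week 3 added 756 (3.38%). With the mESC list left out, week 1 stood as the first stage with 4724, and weeks 2 and 3 added 1988 and 796. Of the 3646 promoters first marked at week 1, 1670 (45.8%) were marked at both later weeks and 997 (27.3%) at neither. Of the 1796 first marked at week 2, 790 (44%) were still marked at week 3. In all, 2446 promoters (10.9%) were marked at the 3 EB weeks and 776 (3.47%) in the 4 lists. Without the mESC domains under 1 read per bin, 361 were marked in the 4 lists.

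From mESC to week 1, 63.6% of marked promoters were marked again (1078 of 1694, interval 61.3 to 65.9). From week 1 to week 2 the share was 72% (3403 of 4724, 70.7 to 73.3), and from week 2 to week 3 it was 62% (3345 of 5391, 60.7 to 63.3). Among promoters unmarked at the earlier stage, 17.6%, 11.3% and 5.95% were marked at the next. At each step the mark was thus several times more frequent where it had been before. With the lists cut to equal covered length the shares kept were 48.1%, 38% and 45.7%, so the higher share from week 1 to week 2 did not hold there.

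Domains were short at week 1 and long at weeks 2 and 3. The median length was 41.2 kb in mESC (quartiles 18 and 124 kb), 16.2 kb at week 1 (9 and 30.6), 63 kb at week 2 (32.4 and 129.6) and 72 kb at week 3 (39.6 and 137). Domains of 100 kb or longer made up 4.33% of the week 1 list, 32.8% of the week 2 list and 36.7% of the week 3 list. In mESC they were 29.6%, and among mESC domains of 1 read per bin or more the median length was 28.5 kb. The bin was 1.5 kb in mESC and 1.8 kb in each EB list. In the WT H3K27me3 lists the medians were 61.2, 8.75, 64.8 and 46.8 kb in order of stage. Short domains at week 1 and longer ones after it were thus not particular to the KO cells.

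Most week 1 domains lay under the longer domains of week 2, which extended far beyond them. Of 6600 week 1 domains, 4349 (65.9%, interval 64.7 to 67) met a week 2 domain and 3421 (51.8%) lay wholly inside one, while the week 2 list covered 17.6% of the genome. A total of 865 week 2 domains joined 2 or more week 1 domains, up to 17 in 1 domain. Another 1654 week 2 domains (39.6%) were assigned none, and 30.5% of the week 2 length was shared with week 1. From week 2 to week 3, 2479 of 4180 domains (59.3%, 57.8 to 60.8) were met again, and the shared sequence was 251 Mb, or 53.8% of the week 2 length. From mESC to week 1, 517 of 722 (71.6%, 68.2 to 74.8) were met by a list covering 6.78% of the genome.

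The same lengthening was present at promoters that stayed marked. At the 2446 promoters marked at all 3 EB weeks, the domain had a median length of 46.8 kb at week 1, 160.2 kb at week 2 and 126 kb at week 3. It was longer at week 2 than at week 1 for 2130 of them (87.1%), and longer at week 3 than at week 2 for 804 (32.9%). Domains with a promoter were longer than those without at each stage, with medians of 58.5 against 16.5 kb in mESC, 21.6 against 12.6 kb at week 1, 77.4 against 48.6 kb at week 2 and 84.6 against 63 kb at week 3. Reaching a start is easier for a longer domain. Gene starts per Mb of domain were 15.6 in mESC and 18.7 at week 1, and 9.75 and 9.10 at weeks 2 and 3, beside 8.42 over the genome. Per Mb of domain, week 1 thus had the most gene starts, with the mESC value resting on all domains of that list. The share of domains with a promoter was instead lowest at week 1. It was 77.3% in mESC and 47.1%, 59% and 53.9% at weeks 1, 2 and 3.

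**Figure D2:**
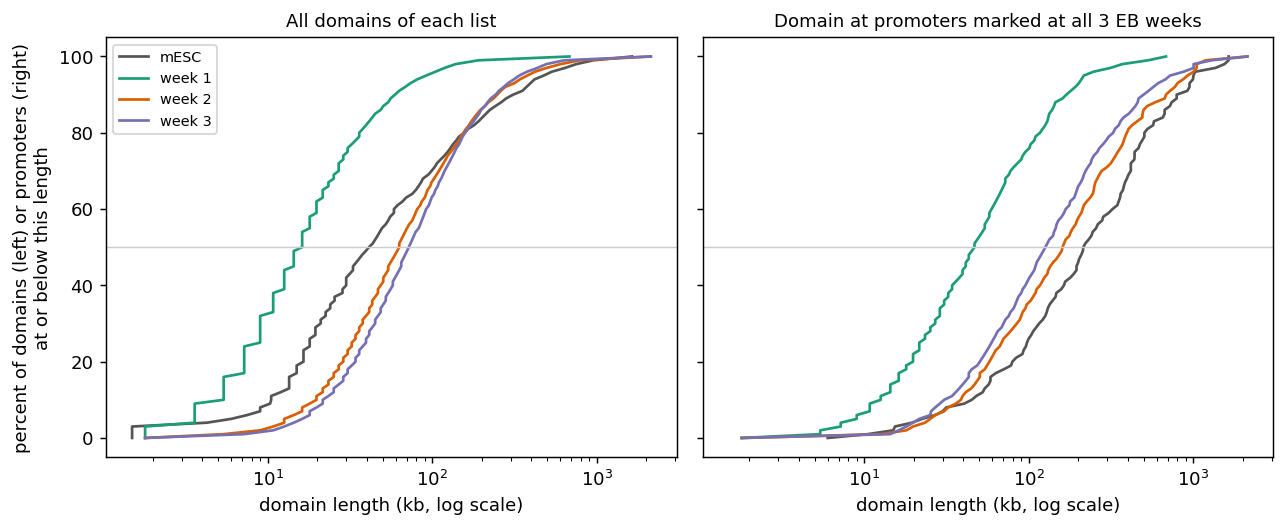
Cumulative percent of domains (left, all domains of each list) and of promoters marked at all 3 EB weeks (right, the domain at each promoter) against domain length in kb on a log scale, in the 4 Uhrf1 KO libraries. The week 1 curve lies left of the week 2 and week 3 curves in both panels, with medians of 16.2 against 63 and 72 kb on the left and 46.8 against 160.2 and 126 kb on the right. The mESC curve on the right rests on the 776 of these promoters marked in mESC.

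Of the longest domains, the 1 on chromosome 11 over the chemokine genes Ccl2, Ccl7, Ccl11, Ccl12, Ccl8 and Ccl1 and the ion channel gene Accn1 recurred. In mESC it ran over chr11:80641501-82279500 (1638 kb) at only 0.153 reads per bin, at week 2 over chr11:80452801-82576800 (2124 kb) and at week 3 over chr11:80535601-82576800 (2041.2 kb). Week 1 domains covered 79.5% of the week 2 domain. The second mESC domain, 1546.5 kb on chromosome 19 with the brain regulators Emx2 and Vax1, averaged 0.0620 reads per bin. At week 2, 1512 kb of chromosome 8 held the single gene Cdh13, a cadherin, where mESC and week 1 had no domain. The longest week 3 domain, 2133 kb on chromosome 8, held 21 genes, among them the patterning factors Irx3, Irx5 and Irx6 and a row of carboxylesterase genes. It was covered to 30.1% at week 1 and 97.4% at week 2. At week 1 the longest were the Hoxb domain, described below, and 669.60 kb of chromosome 17 with Smoc2, a matrix protein gene, and Dact2, a Wnt pathway regulator.

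Chromosome 11 held more of the KO domains than its size at all 4 stages and chromosome 8 at weeks 2 and 3, while chromosome X held almost none. Chromosome 11 is 4.59% of the genome and held 17.7%, 20.2%, 12.8% and 12% of the covered length from mESC to week 3. Its promoters were marked at 21.4%, 48.4%, 45.5% and 40.5%. Chromosome 8 is 4.96% of the genome, and its share was 3.22%, 4.46%, 10.2% and 15.3%, so it grew over the stages. Of 932 promoters on chromosome X, 1, 18, 11 and 7 were marked. In the WT H3K27me3 lists the share was 7.13%, 17.1%, 4% and 5.84% for chromosome 11 and 8.80%, 12%, 7.52% and 12.4% for chromosome 8. The KO H3K4me3 lists had 11.9%, 12.5%, 12% and 10.7% of their length on chromosome 11 and 4.85%, 5.29%, 6.80% and 7.71% on chromosome 8. Shares above the chromosome's size thus occurred also in KO H3K4me3 and in WT H3K27me3, but not in every list. The WT week 2 share of chromosome 11 (4%) and the mESC H3K4me3 share of chromosome 8 (4.85%) were below size. Chromosome 11 also held 7.39% of all promoters, more than its share of the genome. The part of these chromosomes in the results below was not tested, and the input libraries were not analysed here. Without both chromosomes the marked share was 6.41%, 19%, 21.8% and 16.9%, in the same order of stages.

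The promoters that first showed the mark late were poorer in CpG than those marked early. The ratio of observed to expected CpG, from 500 bp before to 500 bp after the start, had a median of 0.560 (quartiles 0.254 and 0.734) for promoters marked in mESC, 0.581 (0.296 and 0.759) for those first marked at week 1, 0.314 (0.157 and 0.632) at week 2 and 0.217 (0.119 and 0.540) at week 3. Promoters never marked had 0.584 (0.234 and 0.788). A ratio of 0.6 or more was found at 47.6% of the week 1 class, 27.3% of the week 2 class and 22% of the week 3 class, beside 45.6% of all promoters. The 2446 promoters marked at all EB weeks had a median of 0.567, near that of all promoters, 0.549.

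Receptor genes of smell, whose promoters are CpG-poor, made up part of the late classes. Olfactory receptor genes were 54 of the 3646 promoters first marked at week 1 (1.48%), 124 at week 2 (6.90%) and 172 at week 3 (22.8%), beside 4.98% of all promoters. Without olfactory and vomeronasal receptor genes the medians of the week 1, 2 and 3 classes were 0.587, 0.355 and 0.338, beside 0.625 for the never marked. After matching the covered length they were 0.621, 0.378 and 0.495, beside 0.537. The low CpG of the week 2 class was thus present in each setting, whereas the week 3 class stood much closer to other promoters once the lists were of equal length.

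**Figure D3:**
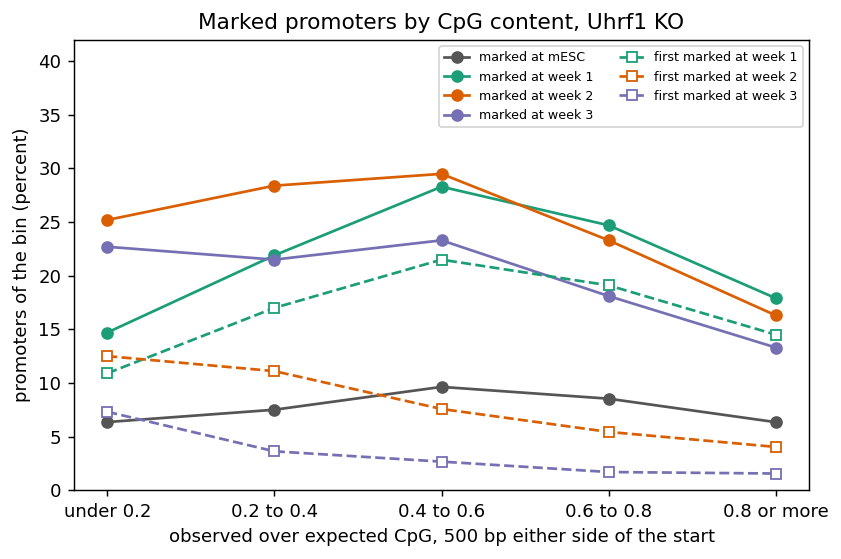
Percent of promoters marked (solid lines) and first marked (dashed lines) at each stage of the Uhrf1 KO cells, in 5 bins of the observed over expected CpG ratio around the start. First marking at week 1 was most frequent at a ratio of 0.4 to 0.6 (21.5%), while first marking at weeks 2 and 3 was most frequent under 0.2 (12.5% and 7.31%). Lines join bins of the same library.

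The contrast can be read from 250 bases of sequence just before the start. The lines below are from the NCBIM37 reference (mm9), 5′ to 3′ on the gene's strand, with each CG in capitals. Hand2, a heart regulator and the first gene of the study's own list to be first marked at week 1, lies at chr8:59799530-59799779 (plus strand) and has 15 CG, with a ratio of 0.743 around the start. Olfr16, the first olfactory receptor gene by position first marked at week 3, lies at chr1:174886649-174886898 (plus strand) and has 2, with a ratio of 0.214. Both were chosen after their values were seen.
Hand2: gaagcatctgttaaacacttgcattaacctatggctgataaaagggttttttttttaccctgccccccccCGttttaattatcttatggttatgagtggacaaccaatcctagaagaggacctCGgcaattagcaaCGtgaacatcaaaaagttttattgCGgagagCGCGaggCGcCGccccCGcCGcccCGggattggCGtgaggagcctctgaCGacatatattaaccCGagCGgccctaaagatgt
Olfr16: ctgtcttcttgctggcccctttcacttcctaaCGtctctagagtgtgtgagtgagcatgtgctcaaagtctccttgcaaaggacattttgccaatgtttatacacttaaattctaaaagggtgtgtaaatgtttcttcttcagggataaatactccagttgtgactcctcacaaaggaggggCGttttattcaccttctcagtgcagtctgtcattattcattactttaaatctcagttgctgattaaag

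Promoters were also ranked by the mean count of their domain within each list, and by their lowest rank over the 4 lists. The 10 promoters that ranked highest in this way lay in only 3 domains, and the first of these held multi-copy genes. It held Gm1979, Gm5862, Speer4a, Gm7347 and Gm10471, members and relatives of the Speer family, in a domain of 91.5 kb with 13.2 reads per bin in mESC and of 91.8 kb with 27.1, 21.9 and 17.1 at weeks 1, 2 and 3. Sequence before Gm1979 (chr5:26331339-26331588, minus strand) and Gm5862 (chr5:26349457-26349706, minus strand) is shown because the copies can hardly be told apart. They share a run of 109 bases and 198 of 204 aligned bases (97.1%), and the authors kept 1 alignment per read, so the counts of single copies are uncertain.
Gm1979: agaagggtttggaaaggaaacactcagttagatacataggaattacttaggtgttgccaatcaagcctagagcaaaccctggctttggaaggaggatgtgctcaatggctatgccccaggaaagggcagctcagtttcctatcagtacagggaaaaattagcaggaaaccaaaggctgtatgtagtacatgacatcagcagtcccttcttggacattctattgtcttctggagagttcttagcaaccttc
Gm5862: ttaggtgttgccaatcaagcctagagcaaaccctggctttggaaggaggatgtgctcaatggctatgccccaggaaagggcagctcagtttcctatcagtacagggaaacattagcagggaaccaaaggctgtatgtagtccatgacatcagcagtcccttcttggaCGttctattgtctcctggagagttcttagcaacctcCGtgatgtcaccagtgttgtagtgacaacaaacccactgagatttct

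The second domain, on chromosome 10, held E030030I06Rik and the genes H60b and Raet1c for ligands of natural killer cells, with 10.6 reads per bin in mESC and 31.4, 19.8 and 14.9 later. The third was the Hoxb domain, where Calcoco2 and Ttll6 ranked among the 10 as neighbours of the cluster. Domains of a single bin with extreme counts led the newly marked genes. At week 1 the highest was 4930468A15Rik on chromosome X, with 101 reads in a domain of 1.80 kb, and at week 2 it was Gm14393, with 17.4 reads in 1.80 kb. Neither has a CG in the 250 bases before its start (chrX:73848264-73848513 and chr2:174893283-174893532, minus strand).
4930468A15Rik: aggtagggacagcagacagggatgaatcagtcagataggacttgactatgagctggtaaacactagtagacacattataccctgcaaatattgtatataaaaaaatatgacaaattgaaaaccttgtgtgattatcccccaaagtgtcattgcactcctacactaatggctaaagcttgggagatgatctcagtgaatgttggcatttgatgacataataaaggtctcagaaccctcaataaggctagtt
Gm14393: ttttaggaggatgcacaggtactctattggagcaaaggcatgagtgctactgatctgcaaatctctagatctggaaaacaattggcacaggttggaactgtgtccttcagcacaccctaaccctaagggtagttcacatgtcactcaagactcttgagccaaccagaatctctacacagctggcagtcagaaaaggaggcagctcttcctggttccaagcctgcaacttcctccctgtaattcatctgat

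Single-bin domains were 206 of the week 1 list (3.12%) and 32 of the week 2 list (0.766%). Among the 8 highest at week 1 were also the cell cycle kinase gene Cdk6 (34.5 reads per bin, 9 kb), Sfi1 (36.2, 101 kb), Gm17379, the glutamate receptor gene Grin3b, Gm10354, Cenpv and Atp5g1, the last a neighbour of Hoxb. Of these 8, Grin3b and Cenpv had lost the mark at week 2. At week 2 the others were Gm17558, Iqcj, Zfp322a, Cox6b1, Scoc, Slco1a1 and Gpr98, and none of the 8 was marked at week 3. At week 3 the 8 were Gm8094, Ankrd1, Gm904, Rad51c, Kcng3, Zfp868, St3gal6 and Snap25, at 7.94 to 15.4 reads per bin. Ankrd1, a heart and muscle gene, had H3K4me3 at weeks 1 and 2 and none at week 3. Snap25, of the synaptic release machinery, had H3K4me3 at all 4 stages.

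Hox genes, which set position along the body axis, were marked without exception. All 39 were marked at each stage, in 4 domains, 1 per cluster. The Hoxb domain was 669 kb in mESC, 682 kb at weeks 1 and 2 and 677 kb at week 3, at chr11:95941801-96624000 at week 1, with 9.39, 23.1, 17.4 and 12.9 reads per bin. The Hoxc domain was also steady, with 504, 455, 508 and 464 kb. Hoxa lay in 948 kb in mESC and in 202, 394 and 722 kb from week 1 to week 3, and Hoxd in 1024, 144, 250.2 and 219.6 kb. So 2 clusters kept their extent while 2 varied, and all 4 mESC Hox domains averaged over 1 read per bin. The 39 genes were also marked in all 4 WT H3K27me3 lists. H3K4me3 lay at 19, 22, 37 and 36 of the 39 starts from mESC to week 3 in the KO cells, beside 57%, 57%, 64.5% and 65.8% of all promoters.

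Regulators of the nervous system were nearly all marked from week 1 on. Of 39 neural transcription factors (Sox1 of the list of 40 was not matched), 16, 39, 38 and 38 were marked at the 4 stages, beside the 7.57%, 21.1%, 24.1% and 19.5% of all promoters. Pax2, Pax3, Pax5 and Emx2 were marked in all 4 lists, and Pax6, Pax7, Otx1 and Otx2 from week 1. Pax6, the eye and forebrain regulator, lay in a domain of 59.4 kb at week 1, 297 kb at week 2 and 302 kb at week 3, with 18.2, 8.34 and 5.72 reads per bin. Sox3, on chromosome X, was marked at week 1 only. In 8 of the 16 mESC cases the domain averaged under 1 read per bin. The WT H3K27me3 lists marked all 39 at each stage, so the marking at the 3 weeks was not particular to the KO cells.

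Proneural bHLH factors, which start neuron formation, numbered 3, 17, 16 and 15 of 18. Neurog2, Neurod2 and Bhlhe23 were marked in all 4 lists, Neurog1, Neurog3 and Neurod1 from week 1 on, and Neurod4 in none. The WT lists marked 17, 17, 17 and 18 of the 18. At matched covered length the 18 gave 3, 14, 10 and 10 in the KO lists, and the neural factors 16, 37, 30 and 31. H3K4me3 at the neural factors numbered 20, 17, 30 and 36 of 39, so at week 3 35 of the 38 marked promoters had both marks, against 17 of 39 at week 1.

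**Figure D4:**
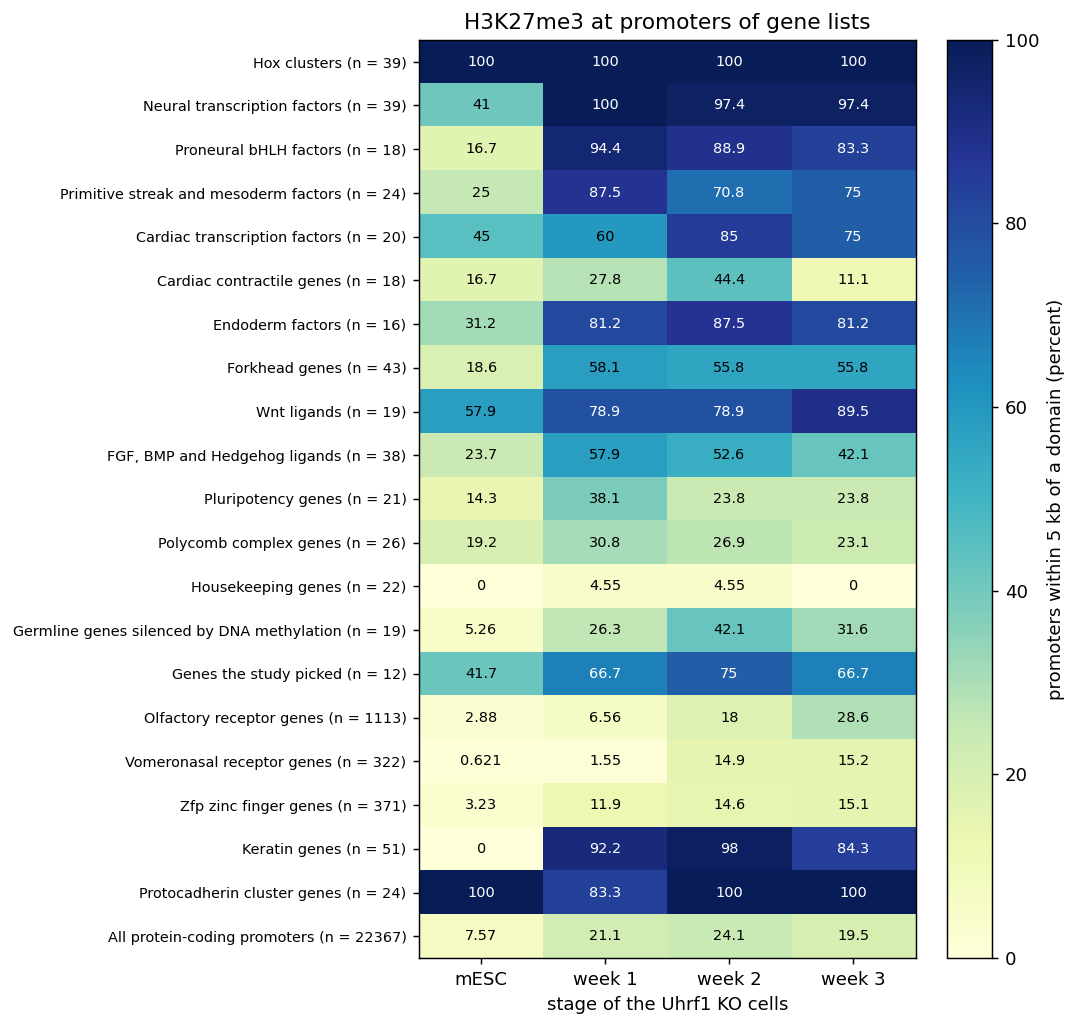
Percent of promoters within 5 kb of an H3K27me3 domain at the 4 stages of the Uhrf1 KO cells, for 20 gene lists and for all 22367 protein-coding promoters. Hox genes stand at 100 throughout, neural factors go from 41 to 100, 97.4 and 97.4, cardiac contractile genes are at 16.7, 27.8, 44.4 and 11.1, and housekeeping genes stay at 0 or 4.55.

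Factors of the primitive streak and mesoderm numbered 6, 21, 17 and 18 of 24. Eomes, Msx2, Lhx1 and Hand1 were marked in all 4 lists, and T, Gsc, Foxc1 and Foxc2 from week 1 on. Mixl1 and Tcf15 were marked at week 1 only, Mesp1 in mESC only, and Tbx6 and Msgn1 in no list. T, the mesoderm regulator brachyury, lay in 104 kb at week 1, 869 kb at week 2 and 493 kb at week 3. It had H3K4me3 in mESC and at week 3, and not at weeks 1 and 2. Matched for covered length, the list gave 6, 12, 6 and 8.

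Cardiac transcription factors numbered 9, 12, 17 and 15 of 20. Nkx2-5, Gata4, Tbx2 and Tbx3 were marked in all 4 lists. Gata6, Isl1, Mef2c, Smyd1 and Hopx were first marked at week 2, and of these Smyd1 and Hopx were unmarked again at week 3. H3K4me3 lay at 10, 14, 16 and 16 of the 20. At matched covered length the numbers marked were 9, 10, 9 and 11, so the larger number at week 2 went with the longer list.

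Cardiac contractile genes, which encode the beating machinery, were marked less often than the factors that control them. Of 18, 3, 5, 8 and 2 were marked, and none at all 3 EB weeks. These were 16.7%, 27.8%, 44.4% and 11.1%, beside 7.57%, 21.1%, 24.1% and 19.5% of all promoters. The list is small, and at weeks 1 and 3 its shares were not far from those of all promoters. All 3 mESC cases, Myh6, Myl3 and Myl4, lay in domains under 1 read per bin. At week 1 the marked genes were Myl2, Myl7, Actn2, Ryr2 and Mybpc3. At week 2 they were Tnnt2, Myh6, Myl2, Myl4, Actc1, Ryr2, Ttn and Mybpc3, and at week 3 Tnnt2 and Myl7. H3K4me3 lay at 4, 14, 10 and 6 of the 18 in the KO cells, so its number was lower at week 2 than at week 1 where that of H3K27me3 was higher, and at week 3 both were lower than at week 2. Actc1 (cardiac actin) and Ttn (titin) had H3K4me3 alone at week 1, both marks at week 2 and neither at week 3. Tnnt2, the heart form of troponin T, had H3K4me3 alone at week 1 and H3K27me3 alone at weeks 2 and 3, in domains of 203 and 301 kb. With the lists at matched length the numbers were 3, 0, 4 and 0. The EBs hold many cell types, and in bulk chromatin 2 marks at a promoter can come from different cells.

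Endoderm factors numbered 5, 13, 14 and 13 of 16. These were 31.2%, 81.2%, 87.5% and 81.2%, beside 7.57%, 21.1%, 24.1% and 19.5% of all promoters. Foxa2, Gata4 and Pdx1 were among those in all 4 lists and Sox17, Foxa1, Onecut1 and Prox1 came in at week 1, while Foxa3 was in none. Matched for covered length, the endoderm factors numbered 5, 10, 8 and 9. Then 5 were marked at all 3 EB weeks, against 12 in the full lists. Of 43 forkhead genes (Foxl1 was not matched), 24 were marked at all 3 EB weeks and 17 in no list. At equal covered length 22, 10 and 13 were marked at weeks 1, 2 and 3, and 7 at all of them. Foxa1, Foxb2, Foxc1 and Foxc2 were among those first marked at week 1, and Foxa3, Foxh1, Foxj1 and Foxj2 among the never marked. Foxo1 was marked at week 1 only.

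Secreted signals were less uniform. Wnt ligands numbered 11, 15, 15 and 17 of 19, and Wnt2, Wnt5a and Wnt5b were first marked at week 3. Their shares were 57.9%, 78.9%, 78.9% and 89.5%, beside 7.57%, 21.1%, 24.1% and 19.5% of all promoters. At matched covered length the Wnt ligands numbered 11, 12, 12 and 14. Wnt1 lay in 126 kb in mESC at 0.908 reads per bin and in 46.8, 50.4 and 41.4 kb later. FGF, BMP and Hedgehog ligands numbered 9, 22, 20 and 16 of 38, or 23.7%, 57.9%, 52.6% and 42.1%. Matched for covered length, these numbered 9, 14, 7 and 9. Fgf5, Fgf6, Fgf8 and Fgf9 were marked from week 1 on, Fgf1 and Dhh at week 1 only, and Fgf2, Fgf7, Fgf10 and Fgf13 never. Shh lay in short domains of 27, 36 and 27 kb at the 3 weeks.

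Pluripotency genes, which keep ESCs undifferentiated, numbered 3, 8, 5 and 5 of 21 (Tfcp2l1 was not matched). These were 14.3%, 38.1%, 23.8% and 23.8%, beside 7.57%, 21.1%, 24.1% and 19.5% of all promoters, so near all promoters at weeks 2 and 3. Pou5f1, Nanog, Klf2 and Zfp42 were among the 13 never marked. Sox2, Esrrb and Utf1 were marked from week 1 on, and Klf4 and Klf5 at week 1 only. At matched covered length the pluripotency genes numbered 3, 5, 3 and 3. The 3 mESC cases, Tbx3, Prdm14 and Fgf4, lay in domains under 1 read per bin. H3K4me3 lay at 19, 8, 18 and 20 of the 21 starts, beside 57%, 57%, 64.5% and 65.8% of all promoters. Its lowest count was thus at week 1, where the contractile genes had their highest, and at week 3 it was back at the mESC level or above. These are promoter states in whole EBs, and cell types were not measured here.

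Genes of the Polycomb complexes numbered 5, 8, 7 and 6 of 26 (19.2%, 30.8%, 26.9% and 23.1%), near the 24.1% and 19.5% of all promoters at weeks 2 and 3. Pcgf1, Cbx2 and Cbx8 were among those marked in all 4 lists, and the core subunits Ezh1, Ezh2, Eed and Suz12 in none. Cbx2 and Cbx8 are neighbours on chromosome 11 and shared a domain in mESC and at weeks 2 and 3, but not at week 1. Germline genes that DNA methylation normally keeps silent numbered 1, 5, 8 and 6 of 19. Their shares were 5.26%, 26.3%, 42.1% and 31.6%, beside 7.57%, 21.1%, 24.1% and 19.5% of all promoters. Mael, Sycp2, Tdrd1 and Dpep3 were marked from week 1 on, and Ddx4, Tex101 and Tuba3a were first marked at week 2, while Dazl, Sycp1, Sycp3 and Hormad1 were in no list. At matched covered length the germline genes numbered 1, 3, 0 and 3, so their larger share at week 2 was in domains of lower mean count. H3K4me3 was at 3, 1, 5 and 8 of the 19. The WT H3K27me3 lists marked 14, 5, 9 and 13 of them, at each stage as many as the KO lists or more. Of 22 housekeeping genes only Psmb2 was marked, at weeks 1 and 2.

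Clustered families showed how few domains could account for many promoters. Keratin genes numbered 0, 47, 50 and 43 of 51. At week 2 they lay in 2 domains, 1048 kb on chromosome 11 and 679 kb on chromosome 15, and at week 1 in 7. The WT lists marked 37, 16, 21 and 38 of them. Protocadherin cluster genes, which give neurons their surface identity, numbered 24, 20, 24 and 24 of 24 in 2 to 4 domains. In lists of equal covered length the keratin genes numbered 0, 18, 50 and 0 and the protocadherin genes 24, 9, 23 and 0. Olfactory receptor genes numbered 32, 73, 200 and 318 of 1113, in 9, 36, 49 and 66 domains, and vomeronasal receptor genes 2, 5, 48 and 49 of 322. The olfactory shares were 2.88%, 6.56%, 18% and 28.6%, beside 7.57%, 21.1%, 24.1% and 19.5% of all promoters. They were thus above all promoters at week 3 only, and the vomeronasal shares were below at each stage. The WT lists marked 695, 80, 1046 and 557 of the 1113 olfactory receptor genes. At matched covered length the olfactory receptor genes numbered 32, 34, 64 and 27, so their growth to week 3 was in domains of lower mean count. Of the 32 mESC cases, 30 were in domains under 1 read per bin. Zinc finger genes named Zfp numbered 12, 44, 54 and 56 of 371, below the share of all promoters at each stage.

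The 12 genes that the study displayed were chosen by its authors on these samples and are no independent evidence. They numbered 5, 8, 9 and 8. Of the 5 marked in mESC, Nkx2-5 had 2.89 reads per bin, while Msx2 (0.140), Tbx5 (0.568), Wnt2b (0.644) and Nes (0.688) lay in domains under 1 read per bin. The limb and heart regulators Msx2, Nkx2-5 and Tbx5 and the neural progenitor gene Nes were marked in all 4 lists. Hand2, Otx2 and Neurod1 were marked from week 1 on, Tubb3 (neuronal tubulin) at weeks 1 and 2, Sall1 at week 2 only, Wnt2b in mESC and at week 3, and Klf2 and Ednra never.

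Their domains followed the general lengthening. Hand2 lay in 52.2 kb at week 1, 374 kb at week 2 and 607 kb at week 3, and Otx2, a forebrain regulator, in 39.6, 178 and 374 kb. Tbx5 lay in 193, 466 and 493 kb and Msx2 in 54, 529 and 508 kb. Nes had 5.40, 77.4 and 93.6 kb, and Neurod1 9, 75.6 and 59.4 kb. Nkx2-5 lay in 34.2, 72 and 103 kb. All 7 genes with a domain at each EB week had a longer domain at week 3 than at week 1.

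**Figure D5:**
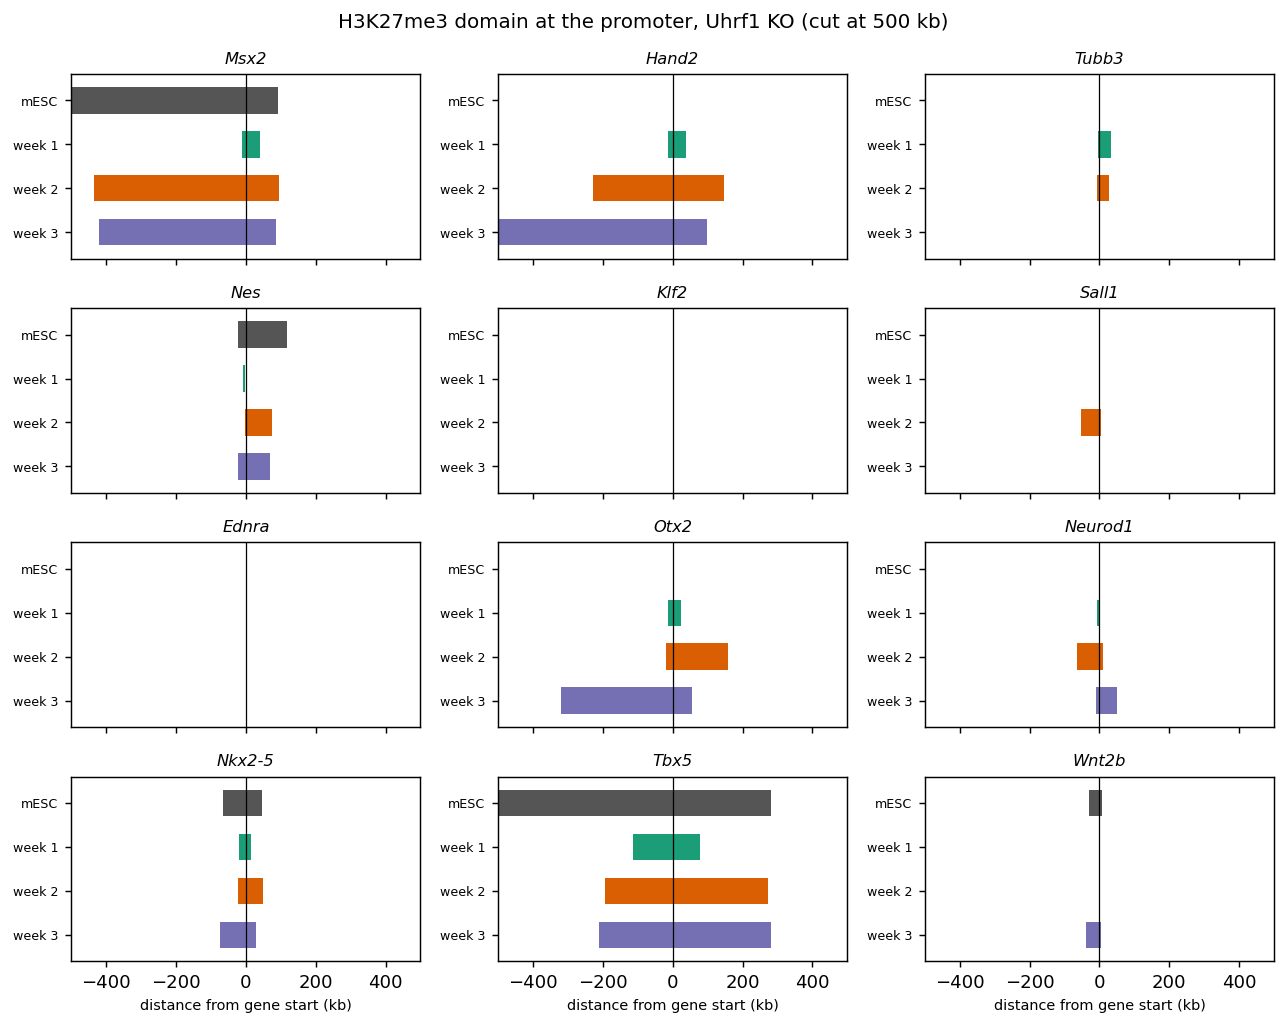
Extent of the H3K27me3 domain at the promoter of the 12 genes displayed by the study, at the 4 stages of the Uhrf1 KO cells, against distance from the gene start in kb (positive into the gene, cut at 500 kb on each side). Bars are absent where no domain lay within 5 kb. The week 1 domain is the shortest of the EB domains at Msx2, Hand2, Nes, Otx2, Neurod1, Nkx2-5 and Tbx5.

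H3K4me3, from the KO libraries of the same stage, was asked for within 2 kb of the start. In mESC it lay at 56.6% of marked promoters (959 of 1694) and 57% of the others, a difference of -0.376 percentage points (Newcombe 95% interval -2.84 to 2.06). The 56.6% combined 521 of 992 promoters (52.5%) in domains under 1 read per bin with 438 of 702 (62.4%) in the other domains, so these lay on either side of the unmarked promoters. At week 1 the shares were 50.7% and 58.7% (difference -8.04, interval -9.64 to -6.44). For week 2 they were 55.5% and 67.3% (-11.8, interval -13.3 to -10.3), for week 3 57.9% and 67.7% (-9.87, interval -11.5 to -8.26). H3K27me3 promoters thus carried H3K4me3 less often in the EB lists. At matched covered length the differences were -2.99, -3.10 and 8.48 points at weeks 1, 2 and 3, so at week 3 the direction turned for the domains of highest count.

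In the full lists the late classes lacked H3K4me3 most. The classes were not compared for H3K4me3 at matched covered length. At the stage of first marking H3K4me3 lay at 52% of the week 1 class, 42.9% of the week 2 class and 39% of the week 3 class. Against the never marked at the same stage the differences were -10.7 (-12.5 to -8.92), -24.6 (-27 to -22.2) and -28.9 points (-32.4 to -25.3). In the late classes H3K4me3 was already infrequent before the first marking. The week 2 class had 33.1% in mESC and 36.2% at week 1, and the week 3 class 29.4%, 33.1% and 38.5% at the 3 earlier stages. These were also the CpG-poor classes, and olfactory receptor genes were 22.8% of the week 3 class. The part of either in the low shares was not tested. Promoters marked at all 3 EB weeks reached the share of the never marked by week 3. H3K4me3 lay at 1106 of the 2446 (45.2%) at week 1, 1534 (62.7%) at week 2 and 1668 (68.2%) at week 3, when the never marked had 67.9% (difference 0.255, -1.76 to 2.23). Between weeks 1 and 2, 650 of the 3403 promoters that kept H3K27me3 gained an H3K4me3 domain and 65 lost one. Among 15655 promoters without H3K27me3 at both weeks, 854 gained and 95 lost it. Where H3K27me3 had left by week 2, H3K4me3 went from 64.2% to 78.6% of 1321 promoters. Where H3K27me3 was kept, H3K4me3 went from 45.4% to 62.6%, and where H3K27me3 was absent at both weeks, from 61.5% to 66.4%. The rise was thus not particular to promoters that lost H3K27me3.

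Most promoters first marked in KO EBs were marked in WT cells at some stage. WT mESCs marked 71.3% (69.1 to 73.4) of the promoters marked in KO mESCs, and 61.4% (59.8 to 62.9), 66.1% (63.9 to 68.3) and 73.7% (70.4 to 76.7) of those first marked in the KO at weeks 1, 2 and 3. Of the promoters never marked in the KO, WT mESCs marked 18% (17.4 to 18.7). At the same week the WT share was 66.6% (65 to 68.1), 55.5% (53.2 to 57.8) and 65.5% (62 to 68.8) for the 3 classes. In any WT list it was 86.4%, 84.7% and 90.6%, and for the 2446 promoters marked at all EB weeks 98.4%, beside 50.9% of all promoters. The WT lists of mESC and weeks 1, 2 and 3 marked 34.9%, 20.5%, 29.8% and 33.2% of all promoters. First marking in the KO series was thus mostly at promoters where WT cells, often before differentiation, carried the mark. The WT mESC list covered 36.1% of the genome, far more than the KO mESC list.

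KO H3K9me3 in mESCs and Uhrf1 in WT mESCs were compared within 5 kb. H3K9me3, a heterochromatin mark, lay at 32.1% of the promoters first marked at week 1, 45.2% at week 2 and 70.5% at week 3, beside 40.1% of all promoters. WT Uhrf1 windows lay at 2.06%, 6.57% and 7.94% of the 3 classes, beside 6.10% of all. The week 3 class was thus the one most often in H3K9me3 domains in mESCs.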

How the data were processed

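H3K27me3 ChIP-seq of Uhrf1 KO mESCs and of their EBs at weeks 1, 2 and 3 was analysed, with 1 library per stage grouped as the labels give it. The authors mapped reads with Bowtie2 2.1.0 to mm9, keeping 1 alignment per read, and RSEG, run per library with its input, gave the domains. The deposited columns hold 2 values per domain, a signal (reads per bin, averaged over the domain) and a score that was used in no result. The signal depends on the library, so it was ranked only within a list. Sequencing totals were left out here. The 8 input samples were not used.

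Domains were read with Python 3.11 and numpy 2.4.6. Coordinates stayed within the NCBIM37 chromosomes, and GENCODE genes of that build gave 22367 starts. The windows were 5 kb for H3K27me3, H3K9me3 and Uhrf1 and 2 kb for H3K4me3, with 1 bp of overlap. Overlap code was tested on simulated data. Named genes were listed members in list order, the 10 highest-ranked promoters marked in all 4 lists, the 8 highest newly marked per week, the longest domains and the study's 12 genes. The members and lists were chosen with earlier results of these data known. Symbols with 2 entries (Hoxa3, Tnnc1) were counted once. Some listed genes are not reported here by name.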

Additional observations from a re-analysis of the deposited data

Results flagged for a closer look

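The number of marked promoters moved in opposite directions in the KO and WT series at 2 steps. From mESC to week 1 it changed by 3030 in the Uhrf1 KO lists and by -3215 in the WT lists, which marked 7800 and then 4585 promoters. From week 2 to week 3 it changed by -1036 in the KO and by 758 in the WT, from 6671 to 7429. The difference was not tested, because each stage was 1 library. In covered length the WT lists held 959.7, 101.3, 1165 and 791.4 Mb and the KO lists 84.07, 180.1, 466.8 and 419.9 Mb.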

How the results depend on the processing

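No paired analysis was possible because each group was 1 library. For the 35 results, 116 alternative values were computed, of which 51 stayed within 1.5 times a count or within the 95% interval of a share, difference or median. The settings with matched covered length for CpG and H3K4me3, without receptor genes, without chromosomes 8 and 11 and with domains of 1 read per bin or more were chosen after seeing the data. The cause of the changes was not tested. Sequencing totals were not used here, so what depth limits in each list was not measured.

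With a 2 kb window, the share of promoters kept from week 1 to week 2 was 73.4%. With 50% of the window covered, the shares kept were 61.1%, 77.1% and 63.6% at the 3 steps in order. Among domains at or above the median mean count of their list, which drops about 1 of every 2 domains, 786, 2578, 3055 and 2194 promoters were marked in order of stage, 2137 were first marked at week 1 and 494 at week 3, 949 were marked in the 3 EB lists and 301 in all 4. The shares kept were then 56.1%, 56.7% and 48%, the domains met again 61.5%, 37.2% and 39.1%, and the median lengths 28.5, 9, 35.1 and 39.6 kb. In that setting WT mESCs marked 74.3%, 52.6%, 49.5% and 47.2% of the promoters first marked in the KO from mESC to week 3, and the WT list of the same week marked 53.3%, 30.9% and 49.2%.

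At matched covered length, 2856, 1822 and 1589 promoters were marked at weeks 1, 2 and 3, 2041, 578 and 371 were first marked there, 653 were marked in the 3 EB lists and 386 in all 4, and 48.1%, 38% and 45.7% were kept. The H3K4me3 difference was then -2.99, -3.10 and, with its direction turned, 8.48 points at weeks 1, 2 and 3, and the CpG medians of the classes were 0.621, 0.378, 0.495 and, for the never marked, 0.537. With domains of 1 read per bin or more, 702 promoters were marked in mESC, 361 in all 4 lists, 67.9% were kept to week 1, and the mESC median length was 28.5 kb.

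With 50% of the domain covered, 46%, 64.1% and 45.2% of domains were met at the 3 steps, and by base pairs 47.8%, 79.2% and 53.8%. With a 5 kb window the H3K4me3 difference at week 2 was -9.78 points. With 1000 bp either side, the CpG medians were 0.481 for promoters marked in mESC, 0.500 and 0.283 for those first marked at weeks 1 and 2 and 0.495 for the never marked. Without receptor genes they were 0.355 and 0.338 for weeks 2 and 3 and 0.625 for the never marked.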
